A study of Caenorhabditis elegans with 6 samples.

Results

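The 8 genes described here, cct-1 to cct-8, encode the subunits of the cytosolic chaperonin CCT (also called TRiC) of Caenorhabditis elegans. They are 8 of the 46748 genes in the deposited table and were selected by gene name. The group was chosen on results of these data that were already known, namely the read counts of the libraries and the listed 22G RNA values. Their levels, differences between strains and 22G RNA values are therefore given as a description. The adjusted p-values printed with them say where each gene stood in a test across the whole table and support nothing about the group.

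Messenger RNA of whole adults was sequenced from 3 strains, with 2 libraries each. SIN (strain OD1175) and WT (strain OD1463) both lack normal chromosomal csr-1, an Argonaute gene, being homozygous for its deletion csr-1(tm892), and both are homozygous for transgenes. From what is known of the study, the SIN transgene makes a CSR-1 protein that cannot slice RNA and the WT transgene makes the normal protein; the labels give only the abbreviations. N2 is the standard laboratory strain, with no transgene and no csr-1 deletion. The SIN and WT adults were recognised by how they moved and came from mothers that carried the deletion over a balancer, so those mothers still had a working csr-1 copy. All 3 strains were grown at 20°C on OP50 bacteria, and each library holds a pool of 100 gravid adults. The sources used here do not name the promoters of the transgenes. The comparison of SIN with WT addresses what the slicing activity of CSR-1 does to germline transcripts.

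CCT is built from back-to-back rings in which each subunit takes a fixed place. It binds newly made proteins, above all actin and tubulin, and closes over them with the use of ATP while they fold. It is needed for the growth of most cells, and in the worm its loss is known to disturb microtubules in the early embryo. In yeast, the subunits fall into a side of the ring that binds ATP tightly (CCT1, CCT2, CCT4 and CCT5) and a side that binds it weakly (CCT3, CCT6, CCT7 and CCT8). CSR-1 carries 22G RNAs, small RNAs copied from germline transcripts, which lead it to matching messenger RNAs.

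The libraries held 39865531 and 34654600 counts in SIN, 42126710 and 33739391 in WT, and 44962816 and 42435429 in N2. Of 15404 genes that passed a filter on low counts, all 8 CCT genes among them, 1871 were called higher and 2051 lower in SIN than in WT. With upper-quartile scaling in place of TMM scaling, 65.5% of the calls were higher ones, against 47.7%. In SIN against N2, 1899 genes were called higher and 2043 lower, so that 48.2% of the calls were higher ones, and 59.6% with upper-quartile scaling. The csr-1 transcript, counted over transgene and remaining chromosomal sequence together, had 2913 and 3308 CPM in SIN, 662 and 636 in WT and 446 and 476 in N2. It was 4.79-fold higher in SIN than in WT (edgeR's quasi-likelihood test, adjusted p = 0.000223), so that in these strains slicing and the amount of csr-1 transcript cannot be told apart. CPM are counts scaled to a common library size after TMM correction. The replicates of SIN and of WT were more alike across genes (Pearson's r = 0.99 and 0.989 on log2 CPM) than those of N2 (0.972). The labels do not say that replicates were separate cultures, so p-values measure only the spread between these libraries. In whole worms, fewer cells of a type and less RNA per cell cannot be told apart.

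The genes lie apart on 4 chromosomes (WBcel235, positions from the Ensembl annotation). On chromosome II, cct-3 spans 2233540 to 2243539, cct-1 spans 8185443 to 8187601, cct-4 spans 8283667 to 8285711 and cct-2 spans 8927741 to 8929815, all on the plus strand. On the minus strand of chromosome III, cct-5 spans 4499188 to 4508114 and cct-6 spans 5853530 to 5855687. The last pair is cct-8 on the minus strand of chromosome IV, 1087108 to 1093920, and cct-7 on the plus strand of chromosome V, 1872246 to 1875505. Their longest coding transcripts have 4 to 8 exons, and the proteins they encode run from 529 codons in cct-2 to 549 codons in cct-1. The counted reads cover messenger RNA, in which coding exons and untranslated ends are not separated.

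Among them, 2 overlap another gene in position, and whether the counting used strand is unknown here. The gene over cct-1, T05C12.8, had 0.195 to 0.342 CPM in the 6 libraries. The gene over cct-7, zig-11, an immunoglobulin-domain gene, had 64.3 and 60.7 CPM in SIN, 67.0 and 65.2 in WT, and 70.4 and 59.1 in N2. Neither overlapping gene passed the test in any comparison (adjusted p = 0.637 to 0.978, edgeR's quasi-likelihood test, Benjamini-Hochberg adjusted over all tested genes).

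All 8 CCT transcripts were lower in SIN than in WT. Together they took 0.333% and 0.36% of the counts in SIN, against 0.489% and 0.522% in WT and 0.44% and 0.532% in N2. Summed over the 8 transcripts, the level was 3326 ± 215 CPM in SIN, 5218 ± 259 in WT and 4931 ± 929 in N2 (mean ± SD of 2 libraries each). Each of the 8 genes passed the test of SIN against WT, at 1.38-fold to 1.69-fold lower, and both SIN libraries lay below both WT libraries for every one of them. Of all tested genes 13.3% were called lower in SIN than in WT, and in 35% both SIN libraries lay below both WT libraries. The median log2 fold change of the 8 genes was -0.67, beside 0.04 over all tested genes and -0.63 over the genes that were called lower.

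**Figure D1:**
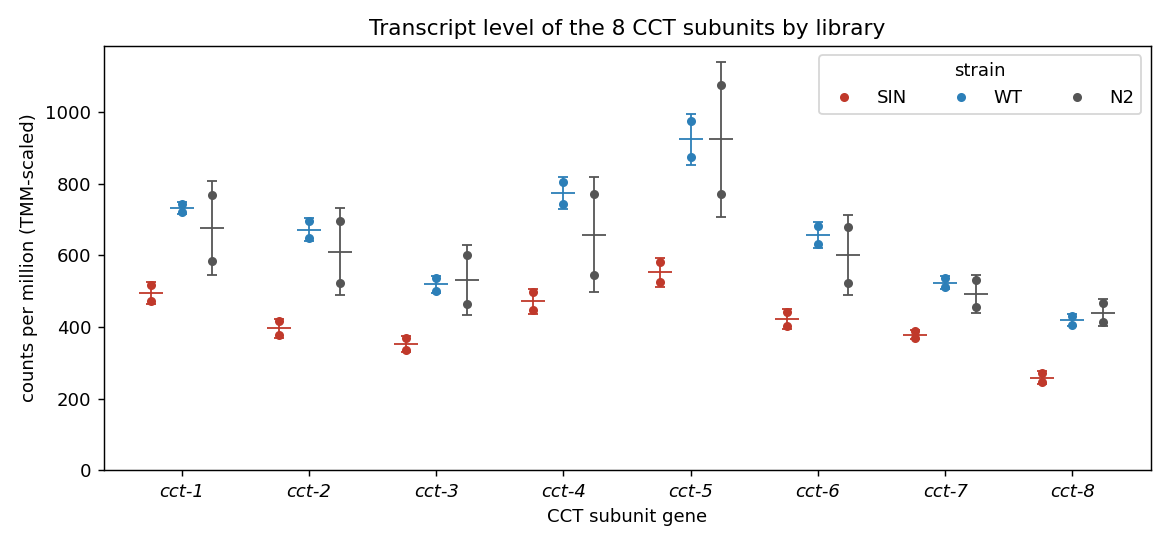
Transcript level of each CCT gene in every library, in CPM. Points are libraries of SIN, WT and N2, long bars are group means and whiskers are ± SD (n = 2 each). For every gene both SIN points lie below all WT and N2 points, while WT and N2 overlap.

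The subunits whose yeast counterparts bind ATP tightly come first. The gene cct-1 encodes the alpha subunit, the founding member of the family. Its level was 472 and 516 CPM in SIN, against 720.0 and 744 in WT and 584 and 769 in N2. Both SIN libraries were the lowest, and the N2 libraries lay on both sides of the WT pair. Relative to WT the difference was -0.57 ± 0.15 on the log2 scale (SE), or 1.48-fold lower (edgeR's quasi-likelihood test, adjusted p = 0.0339).

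For cct-2, the beta subunit, the level was 378 and 415 CPM in SIN, against 649 and 695 in WT and 524 and 696 in N2. The SIN pair again stood clear of the other 4 libraries. At 1.69-fold, this was the largest difference from WT of the 8 (log2 fold change -0.76 ± 0.15, adjusted p = 0.0161).

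The delta subunit gene cct-4 had 447 and 497 CPM in SIN, 742 and 804 in WT and 544 and 771 in N2. By difference in CPM, N2 replicate 1 was closer to the SIN libraries than to N2 replicate 2, as it also was for cct-1, cct-2, cct-3, cct-5 and cct-6. By ratio this did not hold for every one of these genes. No other CCT gene differed as much between its N2 libraries as cct-4 (1.42-fold). SIN was 1.64-fold lower than WT (log2 fold change -0.71 ± 0.17, adjusted p = 0.03).

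The epsilon subunit gene cct-5 gave the most counts of the 8. It had 525 and 582 CPM in SIN, 873 and 974 in WT and 771 and 1076 in N2. The groups SIN and WT did not overlap, and the WT pair lay between the N2 libraries. The difference from WT was 1.67-fold (log2 fold change -0.74 ± 0.17, adjusted p = 0.0263).

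On the side that binds ATP weakly in yeast, the gamma subunit gene cct-3 had 336 and 368 CPM in SIN, 501 and 536 in WT and 463 and 601 in N2. The zeta subunit gene cct-6 had 402 and 442 CPM in SIN, 632 and 682 in WT and 522 and 680 in N2. In both, every SIN library was below every other library. SIN was 1.47-fold lower than WT for cct-3 (adjusted p = 0.0326) and 1.56-fold lower for cct-6 (adjusted p = 0.0239).

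The eta subunit gene cct-7 had 369 and 387 CPM in SIN, 511 and 536 in WT and 455 and 530 in N2. Its difference between SIN and WT was the smallest of the 8, at -0.47 ± 0.11 on the log2 scale or 1.38-fold lower (adjusted p = 0.0243). The theta subunit gene cct-8 had 246 and 271 CPM in SIN, 407 and 430 in WT and 412 and 467 in N2. It gave the fewest counts and had the lowest adjusted p (1.62-fold lower, log2 fold change -0.69 ± 0.11, adjusted p = 0.00803). Its SE and that of cct-7 were the smallest, at 0.105 and 0.107, against 0.141 to 0.174 for the other 6 genes.

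These calls depended on the scaling and on having both libraries of SIN and WT. Under upper-quartile scaling the median over all genes was 0.17 on the log2 scale, beside 0.04, and 2 of the 8 calls remained, cct-2 (adjusted p = 0.0367) and cct-8 (adjusted p = 0.0189); relative to that median the 8 genes stood at -0.80 to -0.51 under either scaling. Without SIN replicate 1, SIN replicate 2, WT replicate 1 or WT replicate 2, none of the 8 passed, at adjusted p of 0.0739 to 0.206, 0.0599 to 0.143, 0.0736 to 0.156 and 0.0917 to 0.192, although the log2 fold changes remained between -0.84 and -0.44. Over all tested genes, the calls lower in SIN numbered 1227 with upper-quartile scaling and 287, 143, 104 and 111 without those libraries in that order, against 2051 with all libraries and TMM scaling.

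In the authors' deposited table the 8 genes were likewise lower in SIN than in WT. The authors' deposited table gives log2 fold changes of -0.74 for cct-2, -0.71 for cct-5, -0.69 for cct-4 and cct-8, -0.63 for cct-6, -0.56 for cct-1, -0.55 for cct-3 and -0.47 for cct-7. Adjusted p in the authors' deposited table ran from 1.1e-07 for cct-8 to 0.00204 for cct-3. By the same threshold the authors' deposited table calls 16.9% of its genes with an adjusted p lower in SIN.

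Against N2, which carries the normal chromosomal csr-1, SIN was lower in each CCT gene by point estimate, and 6 of 8 passed the test. This comparison shares its SIN libraries with the one above. Both SIN libraries lay below both N2 libraries for all 8 genes, as they did in 33.1% of tested genes, and 13.3% of tested genes were called lower. The gene cct-8 was 1.70-fold lower (log2 fold change -0.77 ± 0.11, adjusted p = 0.0053) and cct-5 was 1.67-fold lower (-0.74 ± 0.17, adjusted p = 0.0264). The genes cct-2 (1.54-fold, adjusted p = 0.0288), cct-3 (1.51-fold, adjusted p = 0.0274), cct-6 (1.43-fold, adjusted p = 0.045) and cct-7 (1.30-fold, adjusted p = 0.0435) also fell. Those that did not pass were cct-1, at -0.45 ± 0.15 on the log2 scale (adjusted p = 0.0626), and cct-4, at -0.48 ± 0.17 (adjusted p = 0.0879).

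The number that passed against N2 also moved with the libraries. It was 8 without N2 replicate 1 and 7 without N2 replicate 2, 0 without SIN replicate 1 and 1 without SIN replicate 2, WT replicate 1 or WT replicate 2. It was 2 with upper-quartile scaling and 1 with only the SIN and N2 libraries in the fit. The calls over all tested genes moved too. The share of higher ones under upper-quartile scaling is given above. With only the SIN and N2 libraries in the fit, 625 calls were lower ones. Those lower in SIN than in N2, 2043 with all libraries, numbered 3018 without N2 replicate 1, 3496 without N2 replicate 2, 252 without SIN replicate 1, 264 without SIN replicate 2, 862 without WT replicate 1 and 640 without WT replicate 2.

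**Figure D2:**
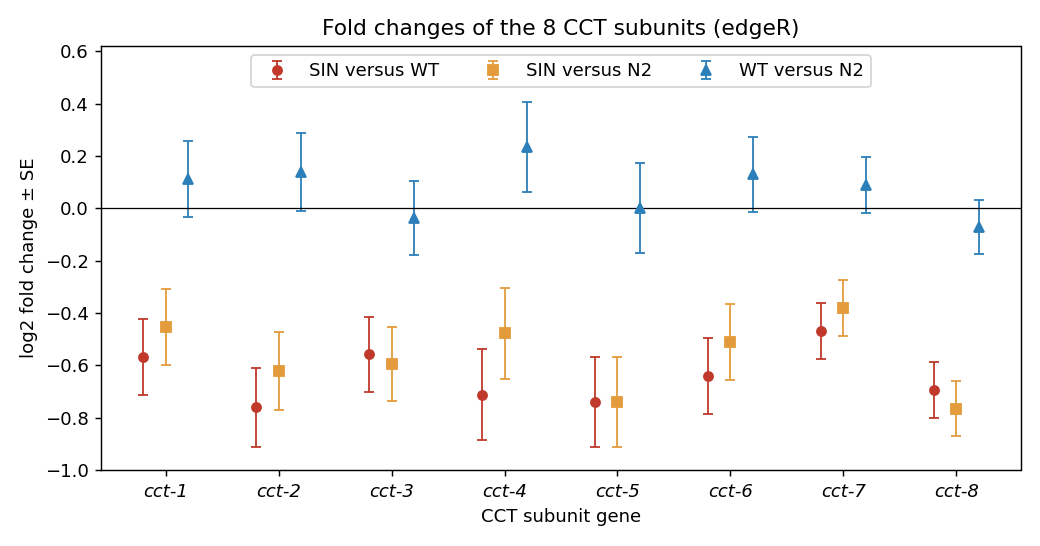
Log2 fold change of each CCT gene in SIN versus WT, SIN versus N2 and WT versus N2, with whiskers of ± SE from the edgeR fit. The values against WT run from -0.76 for cct-2 to -0.47 for cct-7, those of SIN against N2 from -0.77 for cct-8 to -0.38 for cct-7, and those of WT against N2 lie on both sides of 0.

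No CCT gene passed the test of WT against N2. The libraries of WT and N2 overlapped for all 8, and 0 of 8 passed edgeR's test, with 0 at an unadjusted p under 0.05 and 0 by DESeq2. Of all 15404 tested genes 0.11% were called in this comparison, and 3091 had an unadjusted p under 0.05 in edgeR's test. The share of genes whose WT and N2 libraries overlap was not computed. The number that DESeq2 called over all genes is given in the last section. The log2 fold changes of WT over N2 were 0.23 ± 0.17 for cct-4, 0.14 ± 0.15 for cct-2, 0.13 ± 0.14 for cct-6 and 0.11 ± 0.15 for cct-1. They were 0.09 ± 0.11 for cct-7, 0.00 ± 0.17 for cct-5, -0.04 ± 0.14 for cct-3 and -0.07 ± 0.10 for cct-8. N2 replicate 1 was below N2 replicate 2 in all 8 genes, by 1.13-fold for cct-8 to 1.42-fold for cct-4, while the SIN pair differed by 1.05-fold to 1.11-fold and the WT pair by 1.03-fold to 1.12-fold. Without N2 replicate 2, cct-1, cct-2, cct-4 and cct-6 were called higher in WT (adjusted p = 0.0041 to 0.0228), as were 1756 of all tested genes, against 7 with all libraries.

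Per length, the order of the subunits was much the same in each strain. RPKM, counts scaled to TMM library size and to gene length in kilobases, were computed with the deposited gene lengths. The level of cct-1 was 264 ± 16 RPKM in SIN, 391.7 ± 9.2 in WT and 362 ± 70 in N2 (mean ± SD of 2 libraries each, as for all RPKM below). The level of cct-4 was 241 ± 18 RPKM in SIN, 395 ± 22 in WT and 336 ± 82 in N2. These lay within each other's SD in WT and N2, and in SIN their values of 253 and 276 RPKM for cct-1 and 228 and 254 RPKM for cct-4 overlapped.

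Next came cct-2, at 206 ± 14 RPKM in SIN, 349 ± 17 in WT and 316 ± 63 in N2, and cct-5, at 188 ± 14 RPKM in SIN, 314 ± 24 in WT and 314 ± 73 in N2. The libraries of these neighbours overlapped in SIN and N2. In WT they did not, at 337 and 361 RPKM for cct-2 against 297 and 331 RPKM for cct-5. By the deposited lengths, the 4 highest means in each strain were those of the genes of the side that binds ATP tightly in yeast. With the exon lengths given below this did not hold for the SIN means. It held for the WT and N2 means, where cct-2 and cct-6 were close.

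Lower levels were seen for cct-6, at 155 ± 10 RPKM in SIN, 242 ± 13 in WT and 221 ± 41 in N2, and for cct-3, at 136 ± 8.8 RPKM in SIN, 199.8 ± 9.4 in WT and 205 ± 38 in N2. The lowest were cct-7, at 122 ± 4.2 RPKM in SIN, 169 ± 5.6 in WT and 159 ± 17 in N2, and cct-8, at 108 ± 7.3 RPKM in SIN, 175 ± 7.0 in WT and 184 ± 16 in N2. This last pair traded places, with cct-7 above cct-8 in both SIN libraries and below it in both WT and both N2 libraries. In WT the 2 genes differed by less than the spread of their libraries. The trade of places was seen only with the deposited lengths. In CPM, and with the exon lengths given below, cct-7 lay above cct-8 in every library.

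The order rests on the deposited lengths. For cct-5, cct-6 and cct-7 the deposited length is 2939, 2718 and 3089 bases, whereas the exons of the Ensembl annotation cover 1931, 1912 and 2259 bases. For cct-4 it is 1958 bases against 1854, for cct-8 2395 bases against 2358, and for cct-1, cct-2 and cct-3 the lengths are closer still. With the exon bases as length, an alternative added after the data had been seen, cct-5 was the highest of all, at 286 ± 21 RPKM in SIN, 478 ± 37 in WT and 478 ± 112 in N2. With them cct-6, of the other side, had 220 ± 15 RPKM in SIN, 344 ± 19 in WT and 314 ± 58 in N2, beside 206 ± 14, 349 ± 17 and 316 ± 63 RPKM in SIN, WT and N2 for cct-2, so that in SIN cct-6 was the higher of the pair. The same lengths put cct-8 lowest, at 110 ± 7.4 RPKM in SIN, 177 ± 7.1 in WT and 186 ± 16 in N2. The highest subunit was then 2.62-fold above the lowest over all libraries, against 2.26-fold with the deposited lengths.

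The proportions of the 8 transcripts changed little while their sum changed. Protein was not measured. The share of cct-6 in the summed RPKM of the 8 genes stayed between 10.5% and 10.9% over the 6 libraries. The share of cct-2 ranged from 14.5% to 15.6%, that of cct-1 from 17.2% to 18.6% and that of cct-3 from 8.93% to 9.83%. Wider ranges were those of cct-4 (15.3% to 17.8%), cct-5 (13.2% to 15.4%), cct-7 (7.21% to 8.81%) and cct-8 (7.59% to 9.49%), the widest being 1.25-fold.

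The ratio of cct-7 to cct-8 in CPM, a pair picked out of all pairs of subunits after its values were seen and given as a description, was 1.498 and 1.429 in SIN, 1.26 and 1.25 in WT and 1.10 and 1.14 in N2. The 3 groups did not overlap for this ratio. Measured against the mean profile of the 8 genes over the 6 libraries, cct-6 lay nearest to it, with a root mean square difference of 0.027 on the log2 scale, and cct-8 farthest, at 0.104.

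Other genes followed the same profile as closely as the subunits did. Among 7292 other genes with a gene-class symbol, the nearest to the mean CCT profile over the 6 libraries were atp-3 (an ATP synthase subunit gene; root mean square difference 0.025), rps-10 (a ribosomal protein gene; 0.026), idh-1 (an isocitrate dehydrogenase gene; 0.031), rpl-4 (a ribosomal protein gene; 0.033) and idhg-1 (an isocitrate dehydrogenase subunit gene; 0.035). For instance, atp-3 had 330 and 347 CPM in SIN, 512 and 535 in WT and 431 and 546 in N2. In it, as in the CCT genes, the SIN pair was lowest and N2 replicate 1 was below N2 replicate 2. Between 2 genes, for cct-6, and 186 genes, for cct-8, lay closer to the mean CCT profile than the subunit itself did.

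CCT genes are among the abundant transcripts of the worm, so their values are set here beside those of other abundant genes. Averaged over the 6 libraries, 161 genes were at least as abundant as cct-5 (800.0 CPM) and 437 at least as abundant as cct-8 (372 CPM). Of those 437 genes, which include the 8, 33.0% were called lower in SIN than in WT. Their median log2 fold change was -0.37 and 74.1% of them had a value below 0, beside 47.8% of all tested genes.

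**Figure D3:**
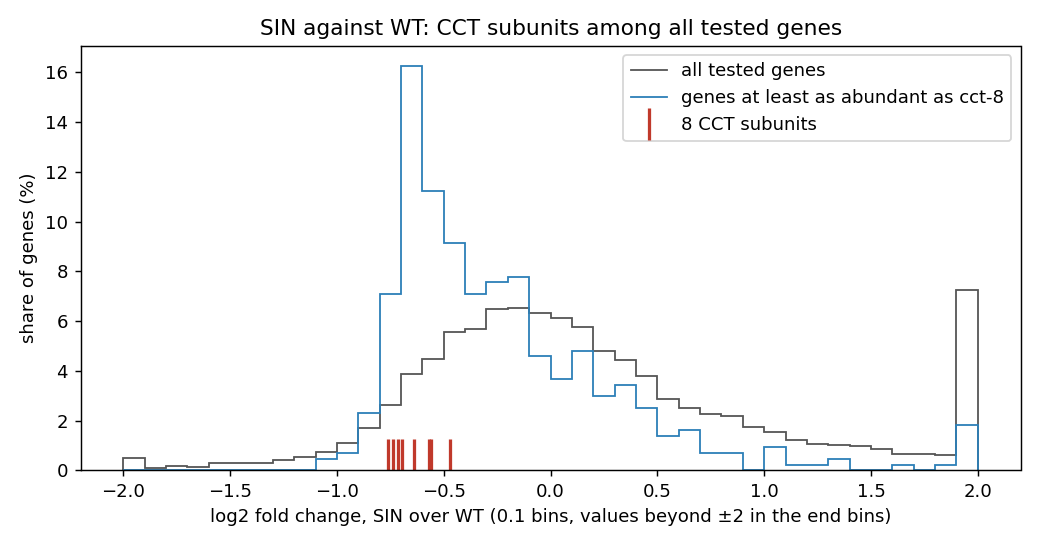
Distribution of the log2 fold change of SIN over WT, as a share of genes in bins of 0.1, for all 15404 tested genes (grey) and for the 437 genes at least as abundant as cct-8 (blue). Red ticks mark the 8 CCT genes, between -0.76 and -0.47, in the range where the abundant genes are most frequent.

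All 8 CCT genes are listed as sources of 22G RNA in both small RNA data sets that the authors added to their table from other studies. Among tested genes 26.7% and 34.1% are listed in the first and second set, and among the 437 genes at least as abundant as cct-8 the shares are 74.4% and 80.3%. The first, under the name Claycomb, lists 4133 genes with a score; how it was normalized is unknown here. Highest of the 8 was cct-1, with a score of 270.0 that exceeds 88.2% of listed genes. Then followed cct-6 at 202, cct-3 at 193, cct-2 at 188, cct-4 at 181, cct-8 at 155 and cct-7 at 136. The lowest score, 81.7, was that of cct-5, which exceeds 42.7% of listed genes. The median of the 8 was 185, beside 97.8 over all listed genes.

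In the second data set, under the name Conine, 22G RNA was measured in a CSR-1 immunoprecipitate for 5517 genes, in reads scaled to library size (RPM). The value was 121 RPM for cct-7, 112 RPM for cct-8, 104 RPM for cct-3, 99.7 RPM for cct-2, 73.8 RPM for cct-6, 65.5 RPM for cct-1, 60.3 RPM for cct-4 and 55.8 RPM for cct-5. All lay above the median of listed genes, 36.9 RPM. The deposited enrichment score over input, a fraction, was 0.922 for cct-5, 0.913 for cct-2, 0.911 for cct-7, 0.91 for cct-4, 0.906 for cct-8, 0.883 for cct-6, 0.853 for cct-3 and 0.831 for cct-1. The median over listed genes was 0.859, so cct-3 and cct-1 lay below it and the other 6 above. The gene lowest in both 22G amounts, cct-5, thus had the highest enrichment score of the 8, and cct-1, with the highest Claycomb score, the lowest.

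**Figure D4:**
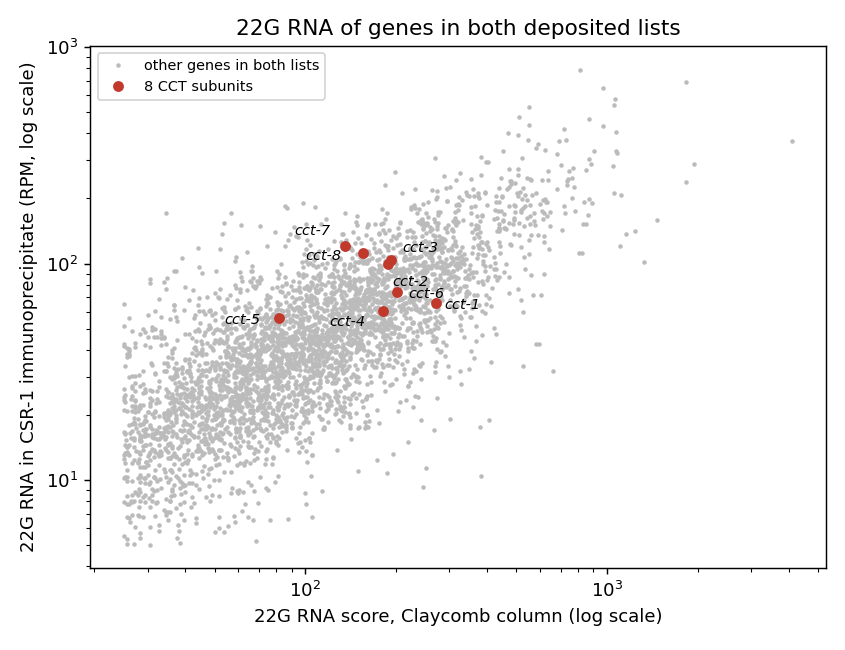
22G RNA of the 3735 genes in both deposited lists, with the Claycomb score on the x axis and RPM in the CSR-1 immunoprecipitate on the y axis, both on log scales. The CCT genes (red) lie between 81.7 and 270.0 in score and between 55.8 and 121 RPM, and cct-5 is lowest on both axes.

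Set against the amount of messenger RNA, the 22G RNA of the CCT genes was below the median of all listed genes. The authors' deposited ratio of Claycomb score to N2 RPKM was 0.955 for cct-3, 0.926 for cct-6, 0.861 for cct-7, 0.855 for cct-8, 0.757 for cct-1, 0.604 for cct-2, 0.548 for cct-4 and 0.264 for cct-5, beside a median of 1.97 over listed genes. For the 8 genes this ratio exceeded 4.86% (cct-5) to 25.5% (cct-3) of listed genes. The ratio contains the transcript level and the deposited length, which for cct-5, cct-6 and cct-7 is longer than the annotated exons. A longer length lowers RPKM and so raises the ratio. It falls as the transcript level rises, and it was not compared with that of genes of like abundance.

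Neither 22G amount ranked the 8 genes in the order of their differences between SIN and WT. Over the 8 genes, as a description, Pearson's r between the log2 fold change of SIN over WT and the Claycomb score was 0.25 (Spearman's rho 0.24), and with the immunoprecipitate RPM it was 0.43 (rho 0.55). The Claycomb score and the immunoprecipitate RPM themselves had r = -0.10 (rho -0.07) over the 8 genes. These points share the libraries and the table's gene models. Of the tested genes in both lists, 26.6% were called lower in SIN than in WT, and of those that were also at least as abundant as cct-8, 38.2% were.

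The deposited germline classes placed all 8 genes among those expressed in the germline by SAGE (Wang). The class germline specific by SAGE held cct-1, cct-2, cct-5, cct-6 and cct-7, and the class germline enriched by microarray (Reinke) held cct-1, cct-2, cct-4, cct-6 and cct-7. Among tested genes, 30.0%, 6.86% and 17.6% belong to these classes in that order. Among the 437 genes at least as abundant as cct-8 the shares are 82.4%, 45.1% and 31.4%. The genes cct-3 and cct-8 are in the germline expressed class only.

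Of the proteins that work with CCT, prefoldin binds new actin and tubulin chains and hands them to the chaperonin. Of its 6 subunit genes 4 fell in SIN relative to WT, 0 rose and 2 did not pass, with a median log2 fold change of -0.64, beside 0.04 over all tested genes, of which 13.3% were called lower. The gene pfd-6 had 64.7 and 60.9 CPM in SIN, 108 and 110 in WT and 88.6 and 109 in N2. Its SIN libraries were the lowest, and it was 1.73-fold lower than in WT (edgeR's quasi-likelihood test, adjusted p = 0.00728). The others that fell were pfd-4 (1.61-fold, adjusted p = 0.0125), pfd-3 (1.58-fold, adjusted p = 0.0133) and pfd-5 (1.54-fold, adjusted p = 0.0278). Against N2, 2 of the 6 fell, pfd-6 (1.57-fold, adjusted p = 0.0114) and pfd-3 (1.505-fold, adjusted p = 0.0177). Of all tested genes 13.3% were called lower in SIN than in N2. Upper-quartile scaling left 3 of the 4 calls against WT, and leaving out a SIN or WT library left none.

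Tubulin and actin are the main clients of CCT. Of 15 tested tubulin genes 6 fell in SIN relative to WT, 0 rose and 9 did not pass, beside 13.3% of all tested genes called lower, and their median log2 fold change was -0.10. The alpha-tubulin gene tba-1 fell 1.37-fold (854 ± 0.79 CPM in SIN against 1171 ± 14 CPM in WT; adjusted p = 0.0187). The beta-tubulin gene tbb-2 fell 1.33-fold (1623 ± 12 CPM against 2167 ± 24 CPM; adjusted p = 0.0311), and the gamma-tubulin gene tbg-1, which nucleates microtubules at the centrosome, fell 1.28-fold (adjusted p = 0.0228). The scarce alpha-tubulin transcript tba-9 fell 4.76-fold at a low level (0.659 ± 0.054 CPM in SIN against 3.15 ± 0.62 CPM in WT; adjusted p = 0.0182). With upper-quartile scaling 1 tubulin gene rose, 1 fell and the median was 0.05. Over all tested genes, 13.3% were called lower and 1899 higher in SIN than in N2. Of the 15 tubulin genes, 2 rose against N2, 2 fell and 11 did not pass. These calls did not hold without any one of the SIN or WT libraries. With 1 or the other N2 library left out, more tubulin genes were called lower. The calls lower over all tested genes moved in the same way, as given above. The beta-tubulin genes tbb-1 and tbb-6, named after their values were seen, were those that rose: tbb-1 had 1422 ± 12 CPM in SIN, 1158 ± 5.5 in WT and 951 ± 118 in N2 (1.495-fold higher than in N2, adjusted p = 0.018), and tbb-6 was 1.85-fold higher than in N2 (adjusted p = 0.0432). Relative to WT tbb-1 stood at 0.30 ± 0.12 on the log2 scale and did not pass (adjusted p = 0.115).

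Of the 5 actin genes only act-2 passed, 1.83-fold lower in SIN (685 and 735 CPM in SIN, 1279 and 1321 in WT, 1082 and 1345 in N2; adjusted p = 0.00813). The median log2 fold change of the 5 was -0.57, and actin genes are close copies between which reads may be divided. Of 7 genes for cofactors that fold and assemble tubulin after CCT, 3 fell and 1 rose. These counts and that of the actin genes stand beside 13.3% of 15404 tested genes called lower and 1871 called higher. The gene evl-20, for an ARL2-like GTPase, fell 1.88-fold (adjusted p = 0.00911), tbce-1 fell 1.46-fold (adjusted p = 0.0158) and tbcb-1 fell 1.34-fold (adjusted p = 0.0369). The gene tbcd-1 rose 1.33-fold (289 ± 1.3 CPM in SIN against 217 ± 5.6 CPM in WT; adjusted p = 0.0154). Leaving out any SIN or WT library left 0 calls among the tubulin, actin and cofactor genes, except that 2 cofactor genes were called lower without SIN replicate 1.

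WD-repeat proteins that are clients of CCT in yeast or mammals did not pass in 4 of 4 genes (median log2 fold change 0.06). The smallest p were those of fzr-1, for an activator of the anaphase-promoting complex (0.32 ± 0.12, adjusted p = 0.0902), and gpb-1, for a G protein beta subunit (0.13 ± 0.14, adjusted p = 0.513). The mitochondrial chaperonin gene hsp-60 had 508 and 583 CPM in SIN, 661 and 668 in WT and 447 and 626 in N2. Its difference of SIN from WT, -0.28 ± 0.17 on the log2 scale, did not pass (adjusted p = 0.263); its partner hsp-10 was not matched by name. Of 3 transcription factor genes, hsf-1, for the heat shock factor, efl-1 and dpl-1, for an E2F and a DP protein, 0 passed. The values of dpl-1 and efl-1 were 0.26 ± 0.11 (adjusted p = 0.144) and 0.10 ± 0.10 (adjusted p = 0.487). With upper-quartile scaling, 1 WD-repeat gene and 1 of these factors were called higher. Over all tested genes 2329 were called higher under that scaling and 1871 with TMM scaling. With only the SIN and WT libraries in the fit, 1 WD-repeat gene and 1 factor were called higher and hsp-60 lower. That fit called 3206 of all tested genes higher and 3315 lower. With no filter on low counts hsp-60 was called lower, as were 3031 of all genes in that fit. Such calls were also made with an N2 library left out. None of the genes in these lists passed in WT against N2.

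Markers of the tissues in a whole worm differed between the strains for some tissues. For scale, of 15404 tested genes 13.3% were called lower and 1871 higher in SIN than in WT. Against N2 these figures were 13.3% and 1899. Summed over 12 germline and oocyte markers, the level was 10850 and 10020 CPM in SIN, 13040 and 12440 in WT and 12720 and 11590 in N2, with 5 lower and 1 higher of 12 in SIN against WT. Sperm markers were higher in SIN in sum, at 19.3 and 26.7 CPM, against 7.36 and 10.2 in WT and 6.53 and 5.94 in N2, and 2 of 8 tested rose. Zygotic genes of the early embryo, which gravid adults carry in their eggs, summed to 9.87 and 8.79 CPM in SIN, 18.5 and 15.6 in WT and 45.9 and 22.2 in N2, with 1 of 8 lower in SIN than in WT. Against N2, 6 of the 8 zygotic genes tested fell in SIN, with a median log2 fold change of -1.80, while 3 germline and oocyte markers fell and 1 rose of 12, and 2 of 8 sperm markers rose.

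Among somatic markers, 1 of 11 intestinal genes and 1 of 9 neuronal genes rose in SIN against WT, and 0 of 10 muscle and 0 of 4 epidermal genes passed. Over all 15404 tested genes, 1871 were called higher and 2051 lower against WT. Those against N2 were 1899 and 2043, and 17 were called in WT against N2. Against N2, 1 intestinal and 1 epidermal gene fell in SIN, 1 neuronal gene rose and 0 muscle genes passed, and in WT against N2 no marker gene passed. Muscle markers summed to 2411 and 3798 CPM in SIN, 3596 and 4120 in WT and 2069 and 4851 in N2. Intestinal markers ran from 41230 to 54560 CPM, neuronal ones from 298 to 342 CPM and epidermal ones from 372 to 1327 CPM over the 6 libraries. None of the marker genes was at 0 in all libraries. In N2 replicate 1, where every CCT gene was lower than in N2 replicate 2, muscle and epidermal sums were also lower. The neuronal sum was slightly lower (298 against 303 CPM). The other sums went the opposite way. Germline and oocyte markers were higher in replicate 1 (12720 against 11590), as were intestinal ones (52200 against 47400). Sperm markers and zygotic genes were higher there too. The part of these tissue differences in the levels of the CCT genes was not tested.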

How the data were processed

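The authors deposited a read count per gene and library, a gene length and an RPKM per strain, per the file headers; STAR, HTSeq, DESeq and DESeq2 are named, without versions or roles, in the submitters' processing notes, as is the build WBcel235. The same table holds the authors' own test of SIN against WT (log2 fold change, adjusted p-value) and, per the file headers, 22G RNA from other studies: a normalized score (Claycomb), the authors' ratio of it to RPKM, and RPM in a CSR-1 immunoprecipitate with an enrichment score, a fraction (Conine). No source used here states the annotation release or whether counting used strand.

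Counts of all 6 libraries were fitted with edgeR 4.0.16 (limma 3.58.1, R 4.3.3): TMM scaling, filterByExpr (minimum count 10, total 15), 3 group means, robust quasi-likelihood test, Benjamini-Hochberg adjustment over 15404 genes, threshold 0.05. The filter removed at most 0.0476% of a library's counts. The fit left 3 residual degrees of freedom, with a biological coefficient of variation of 0.219, and was tested on simulated data. "Rose" and "fell" refer to genes past the threshold. Profile likeness used centred log2 CPM (prior count 2). Alternatives were DESeq2 1.42.0, RLE and upper-quartile scaling, no filter, a replicate block, the compared groups alone and leaving out each library.

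The members and lists were chosen with earlier results of these data known. Named genes are the 8 members, csr-1, up to 4 genes past the threshold per list (otherwise the 2 with the smallest p) and the 5 genes nearest the members' mean profile. Pathway lists were prefoldin, tubulins, actins, tubulin folding cofactors, WD-repeat clients, mitochondrial chaperonin and transcription factors. Sequences are not shown here.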

Additional observations from a re-analysis of the deposited data

How the results depend on the processing

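Every one of the 8 genes kept a lower level in SIN than in WT and in N2 under each alternative run. Against WT, 8 of 8 passed with DESeq2, RLE scaling, no filter, the replicate block and the 2 groups alone, but 2 with upper-quartile scaling, and 0 to 8 when a library was left out; the cause was not tested. Over all genes 3922 were called, 6521 with the 2 groups alone and 361 to 6751 with a library left out. Against N2, 6 passed, 1 with the 2 groups alone, 2 with upper-quartile scaling and 0 to 8 with a library left out, and all 8 with DESeq2, no filter or the block; over all genes 3942 were called, 5922 with no filter, 1914 with the 2 groups alone and 704 to 6028 with a library left out. In WT versus N2, 0 members passed, or 0 to 4 with a library left out. Over all genes 17 were called there, against 1054 with DESeq2, 29 with RLE scaling, 2217 with no filter, 253 with the replicate block, 0 with the 2 groups alone, 10 with upper-quartile scaling and 0 to 4201 with a library left out. Signs turned only in WT versus N2: cct-5 was at -0.052 log2 with upper-quartile scaling, and with a library left out cct-1 ranged from -0.071 to 0.33, cct-2 from -0.051 to 0.37, cct-3 from -0.21 to 0.17, cct-5 from -0.22 to 0.27, cct-6 from -0.049 to 0.34, cct-7 from -0.017 to 0.21 and cct-8 from -0.16 to 0.027. The ratio of highest to lowest level per length, 2.26, was 2.62 with annotated exon bases, chosen after seeing the data. The replicate numbers are not stated to pair libraries and each comparison has only 2; deviations of same-numbered libraries correlated at 0.344 (SIN and WT), 0.377 (SIN and N2) and 0.236 (WT and N2). The block called 4898 genes in SIN versus WT and 4907 in SIN versus N2. Over all genes in SIN versus WT, DESeq2 called 4383, RLE scaling 3813, no filter 5767 and upper-quartile scaling 3556. In SIN versus N2, 5 members passed with RLE scaling, which called 3703 over all genes, and DESeq2 called 4390. A fit with a library left out assumes that the lone library varies like the other groups. Each strain has 2 libraries, which limits the precision of every value.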
